A study of Mus musculus with 18 samples.

Results

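The libraries described here follow normal forelimb bud outgrowth in the mouse between the embryonic days E9.5 and E10.5. They were chosen by their labels as the 3 control libraries of E9.5 and the 3 control libraries of E10.5, which are 6 of the 18 RNA-seq libraries of the series. The series concerns Esco2, an acetyltransferase of the cohesin ring whose human gene is mutated in Roberts syndrome, a disorder with limb reduction. Each library came from individually isolated forelimb buds. All control embryos carried loxP-flanked Esco2 alleles (Esco2fl/fl) with no Cre transgene named, so both stages share the floxed background. Used here only for comparison are 3 control libraries of E11.5, and 3 libraries each of E9.5 and E10.5 from Esco2fl/fl;Prrx1-CreTg/0 embryos, called mutants below, whose Prrx1-driven Cre acts in limb bud mesenchyme. Each library's description carries a code of numbers whose meaning the labels do not state. The codes of E10.5 replicates 1 and 2 of both genotypes begin alike, as do those of E9.5 control replicate 2 and E9.5 mutant replicate 1 and those of E11.5 control replicates 2 and 3, and whether this marks a litter or a batch was not tested. The labels give no sex or somite count and do not say that the 3 libraries of a stage came from separate embryos, so every p-value rests on the spread among the libraries alone, which may be technical.

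A forelimb bud at these stages is a mass of lateral plate mesenchyme under a jacket of surface ectoderm. The apical ectodermal ridge at its distal edge secretes FGFs that keep the mesenchyme growing, and a posterior group of mesenchymal cells, the zone of polarizing activity, secretes Sonic hedgehog (Shh), which patterns the digits. Hox genes of the Hoxa and Hoxd clusters are switched on in the order of their position along the chromosome, and the genes at the 5′ end of those clusters mark the hand plate. Blood vessels, macrophages, muscle precursors from the somites and nerve-associated cells enter the bud during outgrowth, so a bulk library sums all of them, and fewer cells of a type cannot be told apart from less RNA per cell.

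The labelled tissue was checked against its markers. Tbx5, the transcription factor that starts the forelimb, had 97.3, 125 and 109 CPM at E9.5 and 148, 165 and 166 CPM at E10.5 (CPM, a gene's share of its library's counts, scaled with edgeR's TMM factors). Prrx1, a transcription factor of limb mesenchyme, had 353, 418 and 369.7 CPM at E9.5 and 533, 551 and 528 CPM at E10.5. The hindlimb factor Pitx1 had 0.549, 0.660 and 4.40 CPM at E9.5 and 0.369, 0.931 and 0.897 CPM at E10.5. Tbx4, the hindlimb counterpart of Tbx5, had 0.873, 1.21 and 1.67 CPM at E9.5 and 6.15, 10.97 and 11.48 CPM at E10.5, so it was present at a low level that rose (log2 fold change 2.92 ± 0.30, where the value after ± is the standard error). Prrx1, Pitx1 and Tbx4 were picked for this check after their values were seen. Esco2 itself had 24.99, 28.1 and 27.2 CPM at E9.5 and 29.4, 33.6 and 28.1 CPM at E10.5, with no difference that passed the test (log2 fold change 0.18, SE 0.14, edgeR adjusted p = 0.364).

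The libraries held between 44992366 and 56230058 counts. One of them, E9.5 replicate 1, stood apart: it detected 22294 genes against 24138 to 24962 in the other 5, and its first principal component score was -114 against -30.3 and -33.6 in the other E9.5 libraries and 54.4 to 68.9 at E10.5. Short genes were high and long genes low in it, since its deviation from the E9.5 mean had a Spearman correlation of -0.435 with exonic length across genes, which are not independent replicates. Gm42418, a transcript known to overlap a ribosomal RNA repeat, took 1.11% of its counts against 0.303 to 0.599% in the others. Counts of genes and lists below are given without that library where they move by more than 1.5 times.

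Of 20118 genes with enough counts to test, 3009 (15% of those tested) were higher and 2514 (12.5%) lower at E10.5 by edgeR's quasi-likelihood test at an adjusted p under 0.05. Rises were the larger changes: 1501 genes (7.46%) rose and 618 (3.07%) fell by at least 2-fold, and 682 (3.39%) rose and 210 (1.04%) fell by at least 4-fold. The median log2 change was 0.02 over all genes, 1.00 among the genes that rose and -0.65 among those that fell. Counts within the gene lists below are to be read beside the shares of 15% and 12.5%. The number of lower genes was 1588 without E10.5 replicate 1 and 1513 without E10.5 replicate 2. With only these 6 libraries in the fit, so that the spread was estimated without the other 12, 1133 genes were higher and 682 lower. 

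**Figure D1:**
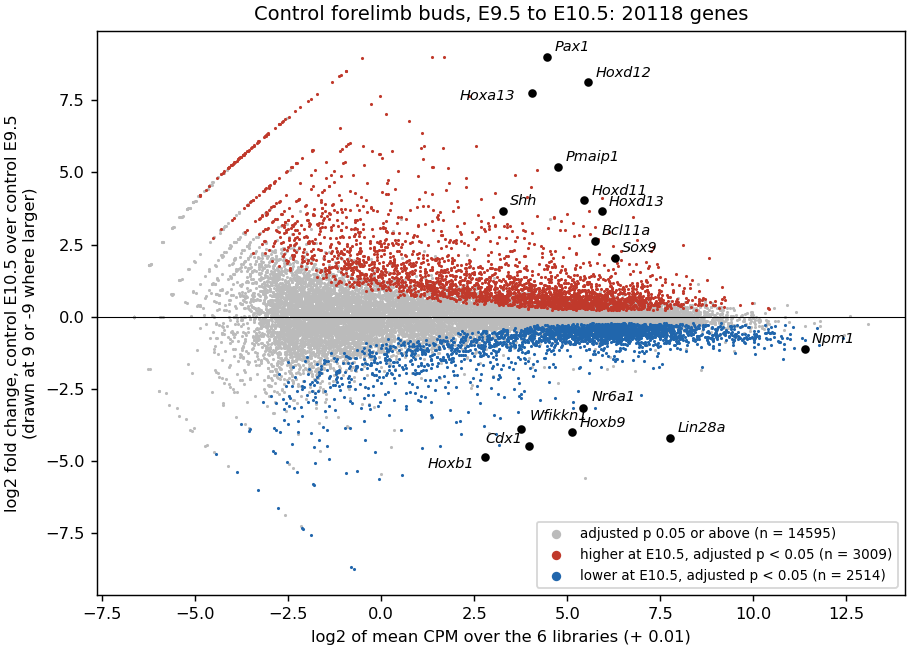
Each point is 1 of 20118 genes. The x axis is the log2 of its mean CPM over the 6 libraries and the y axis its fitted log2 fold change from E9.5 to E10.5, with red points higher and blue points lower at E10.5. Rises reach larger sizes than falls, and Lin28a, at the lower right, is the most abundant of the labelled genes that fell by more than 4-fold. The slanted lines of points at the left are genes with 0 or very few counts at one stage, whose fitted change is no bound.

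Genes at the 5′ ends of the Hoxd and Hoxa clusters were among those with the largest rises. Hoxd12 (chr2:74675013-74677705 in mm10) had 0.200, 0.147 and 0.658 CPM at E9.5 and 98.3, 98.7 and 86.0 CPM at E10.5. Hoxa13 (chr6:52257694-52260880) had 0.175, 0.0183 and 0.267 CPM at E9.5 and 30.6, 39.1 and 28.5 CPM at E10.5. The largest rises were taken only from called genes whose stages did not overlap, so the lack of overlap is no separate result. Over all genes tested, every E10.5 library was higher for 22.2% and every one lower for 16.9%. The fitted rises were 279-fold for Hoxd12 (log2 fold change 8.12, SE 0.51, edgeR adjusted p = 3.24e-08) and 217-fold for Hoxa13 (log2 fold change 7.76, SE 0.44, edgeR adjusted p = 6.29e-09). Hottip, a long non-coding RNA transcribed from beside Hoxa13 in the opposite direction, had 0 counts in all 3 E9.5 libraries and 3.69, 6.74 and 5.06 CPM at E10.5, which is at least 247-fold higher when 3 counts over the E9.5 group are taken as the floor (edgeR adjusted p = 1.01e-06). Evx1os, an antisense RNA of the homeobox gene Evx1 at the same cluster, had 0.0998, 0.348 and 0.0823 CPM at E9.5 and 9.94, 13.9 and 10.3 CPM at E10.5. Evx1 itself had 0.798, 0.916 and 0.432 CPM at E9.5 and 11.501, 13.4 and 11.1 CPM at E10.5. Read pairs were counted by strand, per the file headers, so the antisense gene is counted apart from Evx1.

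Among the other largest rises were genes of several tissues. Pmaip1, which encodes the BH3-only death protein Noxa, had 1.87, 1.26 and 1.19 CPM at E9.5 and 42.4, 51.3 and 64.2 CPM at E10.5 (log2 fold change 5.20, SE 0.27, edgeR adjusted p = 2.88e-09). Agtr2, the angiotensin II type 2 receptor, went from 0, 0 and 0.144 CPM to 7.69, 12.5 and 10.6 CPM. Pax1, a paired-box gene of sclerotome and of the shoulder girdle, had 0.0249, 0 and 0.144 CPM at E9.5 and 47.9, 43.3 and 39.9 CPM at E10.5, a larger fitted rise than that of Hoxd12 (log2 fold change 9.54, SE 1.72, edgeR adjusted p = 0.00126). At E11.5 Pax1 had 56.8, 3.77 and 0.348 CPM, with replicate 1 near the E10.5 level and the others far below it. Ectodermal genes also stood in this group: Zfp750, a regulator of epidermal differentiation, had 0, 0.110 and 0.0206 CPM at E9.5 and 4.26, 5.92 and 2.35 CPM at E10.5. Krt9, a keratin of thick epidermis, had 0, 0.0733 and 0.123 CPM at E9.5 and 3.36, 6.71 and 2.25 CPM at E10.5. Lypd3 (log2 fold change 5.75 ± 0.55), Rhov (5.18 ± 0.45) and the GABA receptor subunit Gabrp (5.92 ± 0.84) rose too, the last from 0 counts in 2 of the 3 E9.5 libraries. Miat, a long non-coding RNA, had 2 counts over the E9.5 group and 312 over the E10.5 group, a ratio of 155 after scaling for library size, with a 95% counting interval of 42.6 to 1286.

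Genes of several kinds were among the largest falls. Lin28a (chr4:134003330-134018841), an RNA-binding protein that blocks maturation of let-7 microRNAs, had 428, 409 and 394 CPM at E9.5 and 28.4, 17.9 and 21.005 CPM at E10.5, a 18.3-fold fall (log2 fold change -4.19, SE 0.34, edgeR adjusted p = 2.96e-07). Cdx1, a caudal homeobox gene of the posterior body axis, had 41.6, 22.6 and 25.02 CPM at E9.5 and 1.41, 1.31 and 1.24 CPM at E10.5. Etv2, which specifies blood and endothelial cells, had 8.71, 4.23 and 4.07 CPM at E9.5 and 0.369, 0.222 and 0.159 CPM at E10.5. Wfikkn1, a secreted antagonist of GDF8 and GDF11, had 29.6, 22.4 and 24.0 CPM at E9.5 and 1.87, 1.42 and 1.79 CPM at E10.5. The largest falls were taken only from called genes whose stages did not overlap, so the lack of overlap of these 4 genes is no separate result. Wnt2 (log2 fold change -4.45 ± 0.59), Gata5 (-3.51 ± 0.67), Hand1 (-3.79 ± 0.89), Upk3b (-4.06 ± 1.18), Hopx (-3.66 ± 0.38), Popdc2 (-3.62 ± 0.57), Gal (-3.46 ± 0.57) and Car4 (-5.48 ± 1.51) fell as well. Upk3b, a mesothelial plaque gene, had 8.28, 23.4 and 16.2 CPM at E9.5 and 0.328, 0.177 and 2.33 CPM at E10.5 and was lowest in replicate 1 at E9.5. The calls of Car4 (0.0623 without E10.5 replicate 2 and 0.0589 without E10.5 replicate 3) and Upk3b (0.0810 without E10.5 replicate 1 and 0.0754 without E10.5 replicate 2) were lost in edgeR with 1 library left out, as the adjusted p in brackets shows.

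The Hox genes separated by their position in the cluster. In the Hoxd cluster 3 of 9 genes rose and 5 fell, and in the Hoxa cluster 3 of 11 rose and 4 fell. In the Hoxc cluster 4 of 9 rose and 4 fell, and in the Hoxb cluster, which has no member tested beyond group 9, 0 of 9 rose and 8 fell, with a median log2 change of -2.11 against 0.02 over all genes. Across the 4 clusters all called members of groups 1 to 9 fell and all called members of groups 10 to 13 rose, and the members that did not pass were Hoxa2, Hoxa3, Hoxa6, Hoxa9, Hoxb3, Hoxc5 and Hoxd10. The division between the falling and the rising part lay at the same place in the Hoxa, Hoxc and Hoxd clusters, between groups 9 and 11. Hoxa9 and Hoxd10, which lie at that place, did not pass.

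**Figure D2:**
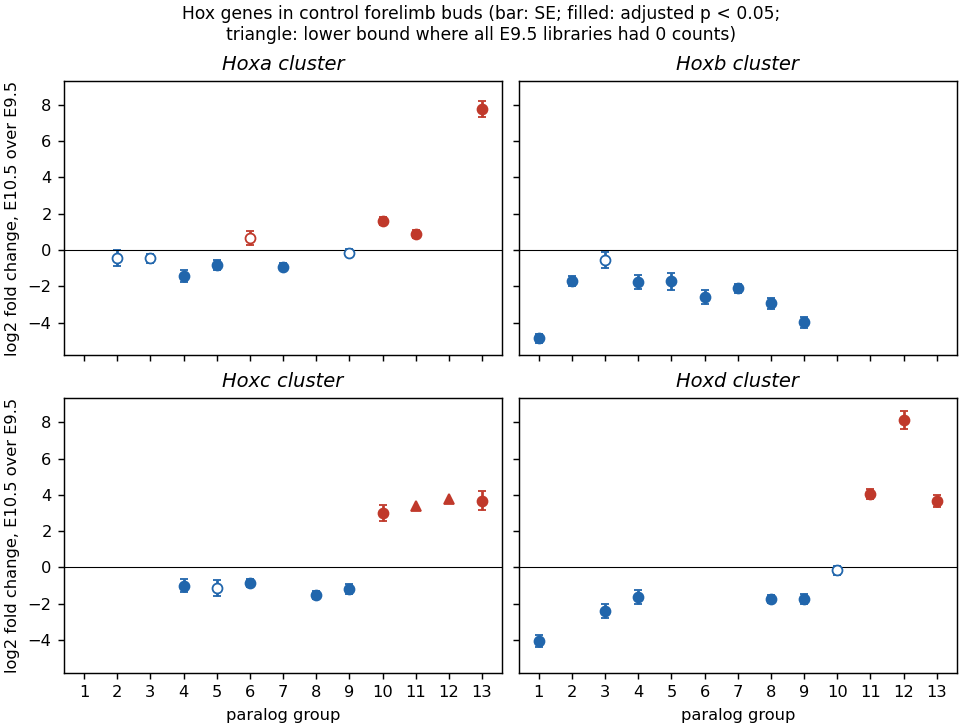
Each panel is 1 Hox cluster, with the paralog group (1 at the 3′ end, 13 at the 5′ end) on the x axis and the log2 fold change from E9.5 to E10.5 on the y axis. Points are fitted values with their standard error, filled where the adjusted p is under 0.05, and triangles are lower bounds for Hoxc11 and Hoxc12. Not every tested gene is drawn. Called points lie below 0 up to group 9 and above 0 from group 10.

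The promoter sequences of 5 Hox genes are shown because their genes mark the ends of this pattern: Hoxd13, Hoxd12 and Hoxa13 rose, and Hoxd1 and Hoxb1 fell. Each is the 250 bases upstream of the RefSeq start (GRCm38.p6), 5′ to 3′ on the gene's strand, with matches to TATAAA, the core of a TATA box, to CCAAT, a promoter-proximal motif, and to GGGCGG, the core of an Sp1 site, on either strand in capitals, where overlapping matches run together.

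Hoxd13 (chr2:74667975-74668224, plus strand): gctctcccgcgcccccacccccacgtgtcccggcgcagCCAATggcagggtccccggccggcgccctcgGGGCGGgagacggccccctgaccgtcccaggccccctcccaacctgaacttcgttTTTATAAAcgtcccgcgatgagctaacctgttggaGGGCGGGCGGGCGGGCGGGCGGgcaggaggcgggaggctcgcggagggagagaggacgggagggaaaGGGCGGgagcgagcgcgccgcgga
Hoxd12 (chr2:74674763-74675012, plus strand): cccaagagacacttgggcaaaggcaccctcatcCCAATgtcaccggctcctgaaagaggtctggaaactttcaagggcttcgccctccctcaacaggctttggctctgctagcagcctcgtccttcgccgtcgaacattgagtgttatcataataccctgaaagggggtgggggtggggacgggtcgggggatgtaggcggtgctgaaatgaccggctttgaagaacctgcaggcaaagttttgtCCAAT
Hoxa13 (chr6:52260881-52261130, minus strand): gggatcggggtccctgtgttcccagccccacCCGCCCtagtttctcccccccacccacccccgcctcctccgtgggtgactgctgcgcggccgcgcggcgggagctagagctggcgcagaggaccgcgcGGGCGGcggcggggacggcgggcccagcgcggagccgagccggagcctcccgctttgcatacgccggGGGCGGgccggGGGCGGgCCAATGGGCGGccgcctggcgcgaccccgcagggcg
Hoxd1 (chr2:74762730-74762979, plus strand): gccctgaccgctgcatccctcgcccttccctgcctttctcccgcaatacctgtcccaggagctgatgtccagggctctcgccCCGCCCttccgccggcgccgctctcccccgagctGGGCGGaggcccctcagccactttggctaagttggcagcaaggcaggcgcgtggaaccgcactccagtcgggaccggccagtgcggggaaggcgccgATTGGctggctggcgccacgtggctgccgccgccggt
Hoxb1 (chr11:96365508-96365757, plus strand): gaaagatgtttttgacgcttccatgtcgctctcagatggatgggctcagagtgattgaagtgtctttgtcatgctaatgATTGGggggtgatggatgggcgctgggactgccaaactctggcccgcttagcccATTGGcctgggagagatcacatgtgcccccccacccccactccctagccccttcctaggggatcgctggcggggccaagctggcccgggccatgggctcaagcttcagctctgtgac

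Hoxd13 and Hoxa13 have upstream sequence of 74.4% and 80.0% G and C with 31 and 35 CpG dinucleotides, and Hoxb1, with 59.2%, has 7. The Hoxd13 window is the only one of the 5 with a TATAAA match, which starts 124 bases upstream of the RefSeq start. Over the 16146 promoters of 12680 tested genes that the RefSeq table holds, 6.93% had TATAAA, 34.5% CCAAT and 54.1% GGGCGG in the same window. The shares were 10.04%, 31.8% and 43.8% for the 1335 promoters of genes that rose at least 2-fold, and 10.3%, 32.1% and 45.2% for the 389 promoters of genes that fell at least 2-fold. The median ratio of observed to expected CpG was 0.675 over all promoters, 0.479 for the rising and 0.527 for the falling genes, so both changed sets had fewer CpG than the tested genes as a whole. These matches and ratios describe the sequence and carry no test.

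Along the Hoxd cluster, the 5′ genes rose, Hoxd10 did not pass and the 3′ genes fell. Hoxd13, which patterns the digits, had 11.1, 6.65 and 9.07 CPM at E9.5 and 110.3, 132 and 95.4 CPM at E10.5 (log2 fold change 3.66, SE 0.32, edgeR adjusted p = 5.55e-07). Hoxd11, a gene of the forearm and hand, had 6.04, 4.60 and 4.61 CPM at E9.5 and 84.0, 83.4 and 81.1 CPM at E10.5 (log2 fold change 4.03, SE 0.28, edgeR adjusted p = 4.84e-08). Hoxd13 was already detected in every E9.5 library, and so was its neighbour Hoxd12, at under 1 CPM. Evx2, the homeobox gene beyond Hoxd13, had 0.125, 0.183 and 0.103 CPM at E9.5 and 3.67, 7.96 and 3.77 CPM at E10.5, and 24.7, 43.8 and 51.6 CPM at E11.5. Evx2 was picked after its values were seen. Hoxd10 had 104, 60.4 and 52.96 CPM at E9.5 and 62.1, 55.0 and 76.8 CPM at E10.5 and did not pass (edgeR adjusted p = 0.647). Hoxd9 fell from 427, 190.5 and 204 CPM to 73.8, 73.9 and 96.9 CPM, and Hoxd8 (log2 fold change -1.74 ± 0.24), Hoxd4 (-1.63 ± 0.39) and Hoxd3 (-2.41 ± 0.37) fell with it. Hoxd1, at the 3′ end, had 10.8, 7.97 and 6.19 CPM at E9.5 and 0.615, 0.377 and 0.478 CPM at E10.5.

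The Hoxa cluster had its largest step between Hoxa11 and Hoxa13. Hoxa10, a gene of the upper arm and forearm, had 72.7, 43.4 and 47.6 CPM at E9.5 and 147, 162 and 184 CPM at E10.5. Hoxa11, a forearm gene, had 77.1, 45.5 and 41.4 CPM at E9.5 and 95.02, 95.8 and 109 CPM at E10.5. Hoxa7 (log2 fold change -0.92 ± 0.18), Hoxa5 (-0.83 ± 0.26) and Hoxa4 (-1.43 ± 0.36) fell, and Hoxa9, at 198, 118 and 116 CPM at E9.5 and 124, 109 and 158 CPM at E10.5, did not pass (edgeR adjusted p = 0.605). With 1 library left out of the edgeR fit, the call of Hoxa5 (0.221 without E9.5 replicate 1, 0.0609 without E10.5 replicate 1 and 0.1003 without E10.5 replicate 2) was lost at the adjusted p given in brackets.

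Hoxb genes fell along almost the whole cluster. Hoxb1 had 13.9, 16.5 and 9.77 CPM at E9.5 and 0.431, 0.488 and 0.458 CPM at E10.5 (log2 fold change -4.86, SE 0.26, edgeR adjusted p = 2.88e-09). Hoxb9, at the other end of the tested genes, had 44.2, 68.3 and 86.0 CPM at E9.5 and 4.33, 3.88 and 4.26 CPM at E10.5 (log2 fold change -3.99, SE 0.32, edgeR adjusted p = 2.56e-07). Hoxb8 fell from 67.8, 51.6 and 68.7 CPM to 9.94, 6.85 and 7.55 CPM and Hoxb6 from 99.4, 46.5 and 55.0 CPM to 14.7, 8.66 and 10.1 CPM. The Hoxc cluster, which serves the trunk and the hindlimb, was low at its 5′ end: Hoxc10 had 0.0998, 0.0550 and 0.226 CPM at E9.5 and 0.964, 1.06 and 1.12 CPM at E10.5. Hoxc13 had 0.0249, 0.348 and 0.329 CPM at E9.5 and 2.05, 4.61 and 2.87 CPM at E10.5, and both genes passed. Hoxc11 and Hoxc12 had 0 counts at E9.5 and 31 and 40 counts at E10.5, at least 10.6-fold and 13.6-fold higher. Without E9.5 replicate 1 the Hoxb cluster had 6 of 9 genes called lower and the Hoxc cluster 2 of 9.

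Of the 14 genes of the apical ectodermal ridge list 3 rose and 2 fell, beside 15% and 12.5% of all genes tested. Fgf4 rose the most. Fgf8, the ridge FGF that is needed from the start of outgrowth, had 78.1, 43.4 and 49.2 CPM at E9.5 and 40.0, 54.8 and 43.9 CPM at E10.5 and did not pass (log2 fold change -0.30, SE 0.33, edgeR adjusted p = 0.534). Fgf4, a ridge FGF that comes on after Fgf8 and depends on Shh signalling, had 0.1497, 0 and 0.144 CPM at E9.5 and 3.05, 5.34 and 4.22 CPM at E10.5 (log2 fold change 5.46, SE 0.96, edgeR adjusted p = 5.60e-04), and at E11.5 it was back to 0.750, 0.0527 and 0.447 CPM. Fgf9 rose from 1.95, 1.85 and 1.58 CPM to 4.33, 7.80 and 5.58 CPM. The third rise was Wnt3, the ectodermal Wnt that induces the ridge (log2 fold change 0.82 ± 0.26). Sp6, a zinc-finger factor of the ridge, fell from 56.7, 80.6 and 78.3 CPM to 23.3, 30.3 and 22.6 CPM, and Dlx2 fell as well (-0.76 ± 0.20). Fgf17, Sp8, Dlx5, Dlx6, Trp63 and Rspo2 did not pass. Leaving out 1 library ended a call in edgeR: the calls of Wnt3 (0.0884 without E9.5 replicate 1, 0.0740 without E10.5 replicate 1 and 0.130 without E10.5 replicate 2) and Dlx2 (0.0567 without E10.5 replicate 3) were lost at the adjusted p given.

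On the mesenchymal side of the same loop, Fgf10, the FGF by which mesenchyme maintains the ridge, fell from 36.4, 50.04 and 44.1 CPM to 25.9, 25.6 and 27.5 CPM (log2 fold change -0.72, SE 0.18, edgeR adjusted p = 0.00650). Of the 14 genes of the FGF response list 3 rose and 2 fell, beside 15% and 12.5% of all genes tested. The median log2 change of the list was -0.15. The receptors Fgfr1 (log2 fold change 0.58 ± 0.09) and Fgfr3 (0.94 ± 0.26) rose, and the ETS factor Etv4, a target of FGF signalling, fell (-0.50 ± 0.14). The remaining rise was Spry2, an FGF feedback inhibitor (log2 fold change 0.28 ± 0.10). By edgeR's adjusted p the calls of Fgfr3 (0.0540 without E9.5 replicate 1 and 0.0523 without E10.5 replicate 2), Etv4 (0.0586 without E9.5 replicate 1, 0.0629 without E10.5 replicate 1 and 0.0746 without E10.5 replicate 2) and Spry2 (0.0712 without E9.5 replicate 2, 0.0633 without E9.5 replicate 3, 0.0699 without E10.5 replicate 1, 0.122 without E10.5 replicate 2 and 0.0832 without E10.5 replicate 3) were lost when 1 library was left out.

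Genes of Shh signalling rose: 12 of the 17 genes of the posterior limb and Shh pathway list rose and 0 fell, with a median log2 change of 1.28. Shh, the ligand (chr5:28456815-28467256), had 2.02, 1.12 and 1.09 CPM at E9.5 and 18.1, 19.9 and 15.6 CPM at E10.5 (log2 fold change 3.67, SE 0.86, edgeR adjusted p = 0.00578). Gli1, a transcription factor induced by the pathway, had 7.21, 9.16 and 18.4 CPM at E9.5 and 88.4, 71.3 and 96.3 CPM at E10.5. The receptor Ptch1, which is also a target, had 18.7, 41.05 and 44.5 CPM at E9.5 and 138, 142 and 99.5 CPM at E10.5. Hhip, a ligand-binding inhibitor, rose from 0.524, 1.01 and 1.502 CPM to 6.15, 6.89 and 5.20 CPM. For each of these 4 genes every E10.5 library was above every E9.5 library, as for 22.2% of all genes tested. The rule names list members by small adjusted p in this same comparison, so the lack of overlap is no separate result. The signal transducers Gli2, Gli3 and Smo did not pass, with log2 fold changes of 0.10 ± 0.18, -0.28 ± 0.18 and 0.40 ± 0.17, and of the co-receptors Boc (1.41 ± 0.19) and Cdon (0.62 ± 0.18) rose while Gas1 (-0.04 ± 0.17) did not pass. Without E9.5 replicate 1 the counts were 11 higher and 1 lower, the lower gene being Gli3. The call of Cdon (0.0627 without E10.5 replicate 1) was lost in edgeR with 1 library left out, as the adjusted p in brackets shows.

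Hand2, Grem1, Osr1, Sall1 and Tbx2 also rose in that list and act in the posterior or distal bud or in connective tissue. Hand2, which activates Shh, had 69.4, 66.9 and 87.4 CPM at E9.5 and 154, 172 and 148 CPM at E10.5. Grem1, the BMP antagonist that relays Shh to the ridge, had 22.1, 26.3 and 26.9 CPM at E9.5 and 67.7, 50.3 and 64.5 CPM at E10.5 (log2 fold change 1.28, SE 0.30, edgeR adjusted p = 0.00503). Osr1, a zinc-finger factor of connective tissue precursors, had 4.66, 3.33 and 4.57 CPM at E9.5 and 44.5, 48.8 and 43.5 CPM at E10.5. Sall1, a factor mutated in Townes-Brocks syndrome, rose from 23.7, 47.9 and 49.5 CPM to 121, 114 and 114 CPM. Tbx2 rose (log2 fold change 0.95 ± 0.19) and Tbx3 did not pass (0.38 ± 0.19). With 1 library left out of the edgeR fit, the call of Grem1 (0.0509 without E9.5 replicate 1) was lost at the adjusted p given in brackets.

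Of 8 anterior limb genes 2 rose and 2 fell, beside 15% and 12.5% of all genes tested. Alx1 fell from 36.4, 36.3 and 41.3 CPM to 11.3, 5.92 and 6.46 CPM, while Alx4, an anterior repressor of Shh, had 68.2, 108 and 99.9 CPM at E9.5 and 103, 100 and 103 CPM at E10.5 and did not pass. Irx3 and Irx5, early anterior and proximal factors, did not pass at log2 fold changes of -0.49 ± 0.41 and -0.15 ± 0.26. Pax9, a later marker of the most anterior digit, had 0.125, 0.0916 and 0.329 CPM at E9.5 and 0.513, 1.02 and 1.22 CPM at E10.5. At E11.5 it had 9.74, 21.03 and 27.1 CPM, so most of its increase came after E10.5.

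Of the 14 factors of the proximal limb and limb field 6 rose and 3 fell. Meis1, a proximal homeobox gene that is excluded from the distal bud, had 84.2, 125 and 131 CPM at E9.5 and 99.4, 86.3 and 90.0 CPM at E10.5 and did not pass (log2 fold change -0.30, SE 0.28, edgeR adjusted p = 0.441). Its paralogue Meis2 had 168, 291 and 270.1 CPM at E9.5 and 183, 150.2 and 154 CPM at E10.5 (edgeR adjusted p = 0.142). Both were lower in E9.5 replicate 1 than in the other E9.5 libraries. Shox2, needed for the upper arm bone, had 64.8, 40.4 and 45.1 CPM at E9.5 and 222, 302 and 277 CPM at E10.5 (log2 fold change 2.41, SE 0.19, edgeR adjusted p = 2.96e-07). Tbx15, a T-box gene of the shoulder region, rose from 84.3, 41.5 and 51.9 CPM to 187, 236 and 234 CPM. Tbx18, a related factor of proximal mesenchyme, rose from 27.3, 22.1 and 22.4 CPM to 69.9, 106 and 83.5 CPM. The other rises were Emx2 (log2 fold change 0.93 ± 0.29), needed for the shoulder blade, and Isl1 (1.44 ± 0.42), a factor of the early limb field. Tbx5 rose by a smaller amount (log2 fold change 0.53 ± 0.13). Hand1, which marks lateral body wall, fell (-3.79 ± 0.89) and had 2.27, 12.4 and 23.5 CPM at E9.5 and 0.472, 0.975 and 1.32 CPM at E10.5. The list had 4 genes higher and 2 lower without E9.5 replicate 1. Leaving out 1 library ended a call in edgeR: the calls of Emx2 (0.148 without E9.5 replicate 1, 0.0506 without E9.5 replicate 2, 0.105 without E10.5 replicate 1 and 0.0545 without E10.5 replicate 2) and Isl1 (0.0527 without E9.5 replicate 1 and 0.0988 without E10.5 replicate 2) were lost at the adjusted p given.

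Of 12 genes of distal and general limb mesenchyme 6 fell and 3 rose. Msx1, a homeobox gene of undifferentiated distal mesenchyme, fell from 473, 292 and 314 CPM to 166, 145 and 187 CPM, and Lhx2, a LIM factor that carries ridge signals, from 231, 153 and 170.1 CPM to 86.6, 86.8 and 109 CPM. Dlk1 (log2 fold change -1.04 ± 0.20), Twist1 (-0.73 ± 0.17), Msx2 (-0.66 ± 0.14) and Prrx2 (-0.57 ± 0.20) fell as well. Wnt5a, the ligand that directs distal elongation, rose from 59.1, 105 and 111 CPM to 187, 207 and 183 CPM, and Tfap2b, an AP-2 factor, from 1.90, 5.24 and 7.80 CPM to 56.3, 76.7 and 42.8 CPM. The third rise was Prrx1 (log2 fold change 0.50 ± 0.16). Of the dorsal-ventral genes, Wnt7a of the dorsal ectoderm (log2 fold change -0.71 ± 0.22) and En1 of the ventral ectoderm (-1.10 ± 0.25) fell, and Lmx1b, the dorsal mesenchymal factor, did not pass (-0.53 ± 0.21). By edgeR's adjusted p the calls of Prrx1 (0.0895 without E9.5 replicate 1, 0.0588 without E9.5 replicate 3, 0.0609 without E10.5 replicate 1, 0.0758 without E10.5 replicate 2 and 0.0565 without E10.5 replicate 3), Prrx2 (0.373 without E9.5 replicate 1, 0.154 without E10.5 replicate 1, 0.123 without E10.5 replicate 2 and 0.0572 without E10.5 replicate 3) and Wnt7a (0.128 without E9.5 replicate 3, 0.0522 without E10.5 replicate 1 and 0.103 without E10.5 replicate 3) were lost when 1 library was left out.

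Retinoic acid, a proximal signal, was represented on its breakdown side by Cyp26b1, which clears it from the distal bud and had 41.01, 60.9 and 55.6 CPM at E9.5 and 225, 252 and 278 CPM at E10.5 (log2 fold change 2.26, SE 0.23, edgeR adjusted p = 2.96e-06). On the synthesis side, Rdh10 fell from 45.4, 47.6 and 52.2 CPM to 19.005, 19.4 and 18.1 CPM. The receptor Rarg rose (log2 fold change 0.83 ± 0.10) and the binding protein Crabp1 fell (-1.75 ± 0.27). Of the 15 genes of the list 3 rose and 3 fell, beside 15% and 12.5% of all genes tested. Log2 changes in the list ran from -4.94 to 2.26, and its other members are not named here.

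The BMP list had 4 of 16 genes higher and 4 lower, beside 15% and 12.5% of all genes tested. Bambi, a decoy receptor, fell from 138, 107 and 111 CPM to 41.8, 43.2 and 44.6 CPM, and the response genes Id2 (log2 fold change -0.53 ± 0.10) and Id3 (-0.66 ± 0.17) fell with it. Bmpr2, a type II receptor, rose (1.06 ± 0.17). In the Wnt list 7 of 24 genes rose and 5 fell, beside the same shares of all genes tested. Rspo3, a Wnt amplifier, had 2.89, 1.78 and 2.14 CPM at E9.5 and 20.3, 20.3 and 18.7 CPM at E10.5. The ligand Wnt10b had 2.15, 1.74 and 0.905 CPM at E9.5 and 10.8, 17.0 and 11.8 CPM at E10.5. The inhibitor Nkd2 rose (log2 fold change 1.30 ± 0.13). Tcf7, a nuclear effector, fell from 149.8, 169 and 160.5 CPM to 57.2, 55.5 and 56.1 CPM.

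Genes of differentiation rose more often than they fell. In the cartilage programme 12 of 24 genes rose and 0 fell, with a median log2 change of 0.81. Sox9, which commits mesenchyme to cartilage (chr11:112782224-112787760), had 34.2, 26.5 and 30.0 CPM at E9.5 and 105, 139 and 128 CPM at E10.5 (log2 fold change 2.04, SE 0.19, edgeR adjusted p = 1.19e-06). Its partner Sox5 rose from 11.6, 15.5 and 16.1 CPM to 33.7, 40.0 and 37.2 CPM. Col9a1, a cartilage collagen, had 13.1, 18.7 and 16.1 CPM at E9.5 and 112, 136 and 118 CPM at E10.5 (log2 fold change 2.93, SE 0.30, edgeR adjusted p = 2.77e-06). Col9a2 had 1.17, 0.916 and 0.844 CPM at E9.5 and 5.68, 17.1 and 10.6 CPM at E10.5. All 4 were higher in every E10.5 library than in any E9.5 library, as were 22.2% of all genes tested. Given the naming rule, this too is no separate result. Without E9.5 replicate 1 the list had 11 higher and 2 lower, the lower genes being Hapln1, a link protein, and Sox6, the relative of Sox5, which were picked for this reason.

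In the connective tissue matrix list 15 of 29 genes rose and 2 fell. Col1a2, a chain of type I collagen, had 111, 215 and 203 CPM at E9.5 and 661, 782 and 731 CPM at E10.5 (log2 fold change 2.04, SE 0.21, edgeR adjusted p = 3.48e-06). Eln, elastin, had 2.54, 2.13 and 2.20 CPM at E9.5 and 14.3, 16.9 and 15.8 CPM at E10.5 (log2 fold change 2.78, SE 0.15, edgeR adjusted p = 6.10e-09). Scx, the tendon precursor factor, had 6.49, 3.19 and 3.17 CPM at E9.5 and 38.3, 53.1 and 44.9 CPM at E10.5. Osr2, a zinc-finger factor of joint and tendon precursors, had 1.70, 1.503 and 0.926 CPM at E9.5 and 22.5, 33.7 and 37.6 CPM at E10.5 (log2 fold change 4.51, SE 0.38, edgeR adjusted p = 4.75e-07). The 2 falls were in other matrix genes. Tnc, tenascin C, had 23.6, 91.1 and 77.6 CPM at E9.5 and 5.47, 4.52 and 11.4 CPM at E10.5. Col14a1, a fibril-associated collagen, had 15.9, 24.7 and 27.7 CPM at E9.5 and 3.75, 2.77 and 3.59 CPM at E10.5. Tnc was lowest at E9.5 in replicate 1, and its stages did not overlap. Every E10.5 library was likewise lower for 16.9% of all genes tested.

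Of 17 Notch pathway genes 9 rose and 1 fell, among them the ligand Jag1 with 10.8, 13.0 and 16.05 CPM at E9.5 and 42.3, 48.1 and 43.6 CPM at E10.5 and the targets Hey1 (log2 fold change 1.17 ± 0.11), Heyl (2.66 ± 0.34) and Nrarp (1.81 ± 0.18). Of 30 ephrin and guidance genes 19 rose and 2 fell. Epha5 had 0.299, 0.880 and 0.473 CPM at E9.5 and 7.26, 6.87 and 7.19 CPM at E10.5. Robo2, a Slit receptor, had 2.32, 9.03 and 9.63 CPM at E9.5 and 65.2, 111 and 93.4 CPM at E10.5. Epha4 rose from 28.6, 46.3 and 57.2 CPM to 163, 165 and 146 CPM. Of 11 IGF genes 5 rose and 0 fell, and Igf1 itself had 3.99, 5.41 and 9.26 CPM at E9.5 and 55.3, 56.2 and 38.0 CPM at E10.5 (log2 fold change 2.9995, SE 0.39, edgeR adjusted p = 4.87e-05). Of the 7 nuclear factor I and Ebf transcription factor genes, 6 rose: Nfia from 4.56, 3.33 and 3.31 CPM to 16.8, 20.9 and 17.0 CPM and Ebf2 from 4.29, 5.37 and 5.58 CPM to 33.0, 28.7 and 25.4 CPM, while Ebf1 did not pass (log2 fold change 0.64 ± 0.26).

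**Figure D3:**
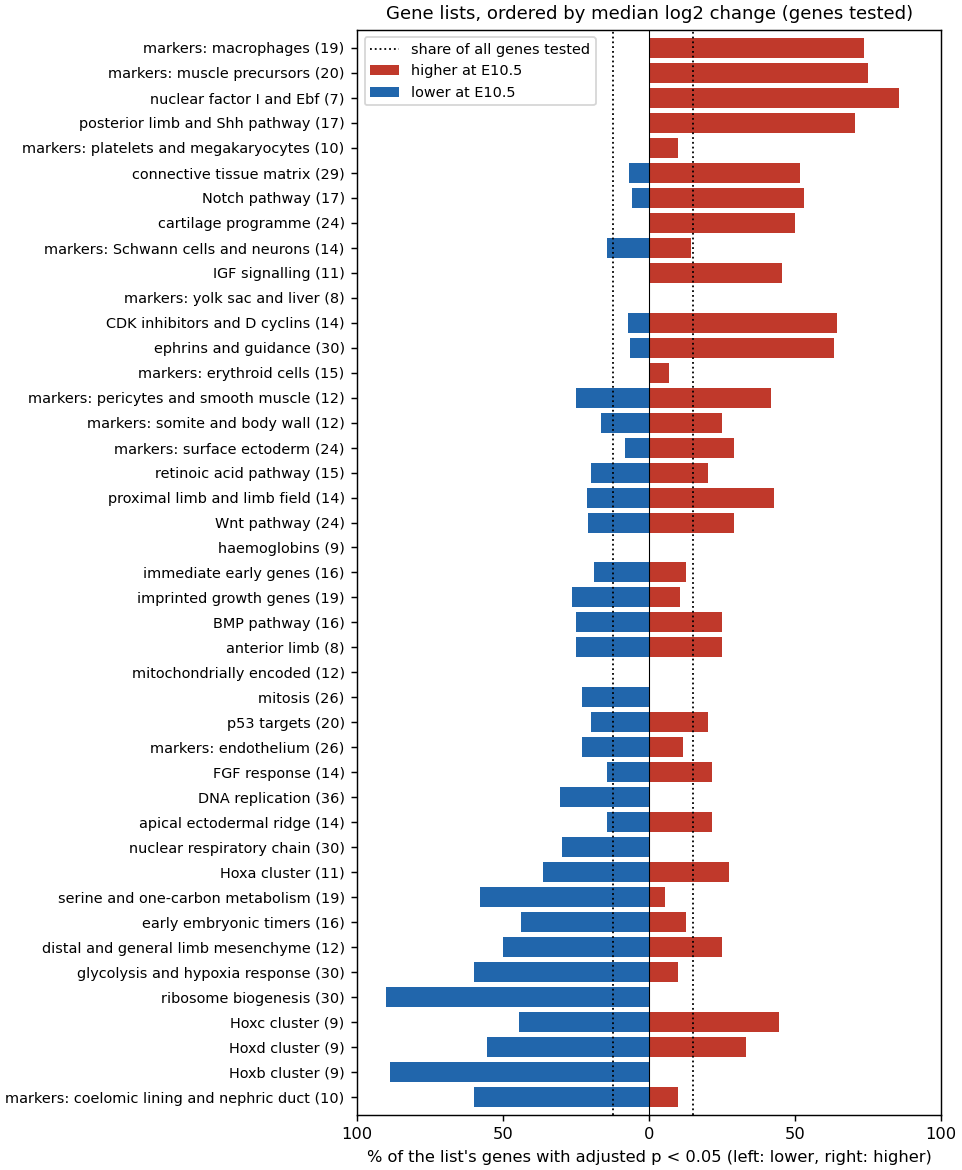
Bars give, for each gene list with at least 7 genes tested, the percentage of its genes that were higher (red, to the right) or lower (blue, to the left) at E10.5 at an adjusted p under 0.05, ordered by the list's median log2 change. Dotted lines mark 15% and 12.5%, the shares over all genes tested. Macrophage and muscle precursor markers, the nuclear factor I and Ebf genes and the Shh list stand at the top, and ribosome biogenesis and the Hoxb cluster near the bottom.

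Of the 16 early embryonic timers tested 7 fell and 2 rose. Besides Lin28a, its paralogue Lin28b had 158, 231 and 211 CPM at E9.5 and 78.0, 56.8 and 70.3 CPM at E10.5, and Trim71, another RNA-binding protein under let-7 control, fell from 165, 197 and 173 CPM to 91.7, 70.0 and 72.1 CPM. Myc, the growth regulator, fell (log2 fold change -1.31 ± 0.15). Nr6a1, a nuclear receptor of the trunk-forming embryo, had 64.1, 88.8 and 78.5 CPM at E9.5 and 9.45, 8.47 and 7.97 CPM at E10.5 (log2 fold change -3.16, SE 0.16, edgeR adjusted p = 2.88e-09). The 2 timers that rose were Dnmt3a, a DNA methyltransferase, with 139, 209 and 219 CPM at E9.5 and 463, 477 and 442 CPM at E10.5, and Hmga2, a chromatin protein (log2 fold change 0.47 ± 0.17). The call of Hmga2 (0.183 without E9.5 replicate 1, 0.0572 without E9.5 replicate 3, 0.123 without E10.5 replicate 1, 0.09997 without E10.5 replicate 2 and 0.0630 without E10.5 replicate 3) was lost in edgeR with 1 library left out, as the adjusted p in brackets shows. The transcriptional repressors Bcl11a and Bcl11b, which are in no list, rose: Bcl11a had 13.1, 16.3 and 14.9 CPM at E9.5 and 88.7, 91.3 and 94.4 CPM at E10.5. Bcl11b had 4.04, 4.93 and 6.56 CPM at E9.5 and 51.4, 60.8 and 43.7 CPM at E10.5.

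Ribosome biogenesis genes fell: 27 of 30 genes fell and 0 rose, with a median log2 change of -0.76, and the same numbers fell and rose without E9.5 replicate 1. Npm1, nucleophosmin, had 4932, 2872 and 3051 CPM at E9.5 and 1727, 1627 and 1705 CPM at E10.5, and its highest value was in E9.5 replicate 1. Nop56 fell from 568, 431 and 423 CPM to 281, 256 and 292 CPM, Nop2 had a log2 fold change of -0.83 ± 0.11 and Gnl3 one of -0.93 ± 0.12. In serine and one-carbon metabolism 11 of 19 genes fell and 1 rose, among them Psat1 with 331, 276 and 287 CPM at E9.5 and 148, 132 and 132 CPM at E10.5. Of 30 glycolysis and hypoxia genes 18 fell and 3 rose: Ldha, lactate dehydrogenase A, had 3706, 2222 and 1875 CPM at E9.5 and 961, 872 and 982 CPM at E10.5. Hk2, hexokinase 2, had 191, 163 and 177 CPM at E9.5 and 99.2, 89.9 and 91.6 CPM at E10.5. Without E9.5 replicate 1 the glycolysis counts were 12 lower and 2 higher.

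Cell cycle genes showed smaller differences. Of 36 DNA replication genes 11 fell and 0 rose, and of 26 mitosis genes 6 fell and 0 rose, with median log2 changes of -0.21 and -0.05. Mad2l1, a spindle checkpoint gene, had 213, 189.8 and 199 CPM at E9.5 and 140.2, 138 and 125 CPM at E10.5. Ccne1, cyclin E1, had 235, 145 and 152 CPM at E9.5 and 106, 101 and 109 CPM at E10.5. Without E9.5 replicate 1 the mitosis list had 3 genes lower, and the 9 of 30 nuclear respiratory chain genes that were lower became 2. Of the 14 CDK inhibitor and D cyclin genes 9 rose and 1 fell. Cdkn1c, an imprinted CDK inhibitor, had 291, 206 and 254 CPM at E9.5 and 532, 692 and 606 CPM at E10.5. Cdkn1a, a p53 target, had 10.6, 9.11 and 13.8 CPM at E9.5 and 23.5, 24.9 and 20.9 CPM at E10.5. Of 12 mitochondrially encoded genes 0 rose and 0 fell by edgeR's test. Of 20 p53 targets 4 rose and 4 fell, beside 15% and 12.5% of all genes tested, and the median log2 change of the list was -0.09. Besides Pmaip1 the rises were Ccng2 (log2 fold change 1.31 ± 0.13), Trp53inp1 (1.47 ± 0.23) and Btg2 (1.36 ± 0.14), and the 4 falls are not named here. Of 16 immediate early genes 2 rose and 3 fell, and of 19 imprinted growth genes 2 rose and 5 fell. Both lists stand beside the same shares of all genes tested. The imprinted growth genes had 3 higher and 2 lower without E9.5 replicate 1. 

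Macrophage and muscle precursor markers rose. Of 19 macrophage markers tested 14 rose and 0 fell, and their summed level was 6.28 to 7.91 CPM at E9.5 and 31.7 to 45.1 CPM at E10.5. C1qb had 0.249, 0 and 0.165 CPM at E9.5 and 3.87, 4.43 and 3.13 CPM at E10.5. The receptor Csf1r had 0.249, 0.440 and 0.988 CPM at E9.5 and 5.08, 7.20 and 5.002 CPM at E10.5. Of 20 muscle precursor markers 15 rose and 0 fell, with a summed level of 83.7 to 113 CPM at E9.5 and 157 to 197 CPM at E10.5. Myod1, the muscle-determining factor, had 0, 0.0916 and 0.206 CPM at E9.5 and 4.39, 8.07 and 5.999 CPM at E10.5. Msc, a repressor of the myogenic factors, had 0.524, 0.128 and 0.206 CPM at E9.5 and 7.71, 6.67 and 5.92 CPM at E10.5. Cxcr4, the receptor that guides migrating precursors, had 4.14, 1.87 and 3.19 CPM at E9.5 and 8.73, 12.6 and 13.3 CPM at E10.5. The muscle list had 11 genes higher without E9.5 replicate 1. The summed level of either list did not overlap between the stages, and exact two-sided permutation tests of 3 against 3 libraries gave p = 0.1, the smallest they can give.

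Markers of other cell types moved in either direction. Of 10 markers of the coelomic lining and nephric duct 6 fell and 1 rose, with a summed level of 31.2 to 93.2 CPM at E9.5 and 11.8 to 24.6 CPM at E10.5. Gata6 had 11.1, 30.7 and 29.1 CPM at E9.5 and 2.56, 2.97 and 4.56 CPM at E10.5, and these markers were lowest at E9.5 in replicate 1. Of 26 endothelial markers 3 rose and 6 fell, with a median log2 change of -0.13 and summed levels of 867 to 965 CPM at E9.5 and 813 to 899 CPM at E10.5. Against that direction Fli1, an ETS factor of vessels and other tissues, rose from 23.2, 31.1 and 29.5 CPM to 63.6, 70.3 and 60.2 CPM, and the 6 falls are not named here. Of 24 ectodermal markers 7 rose and 2 fell: Krt14, a basal keratin, had 2.57, 4.20 and 3.33 CPM at E9.5 and 13.2, 29.9 and 19.2 CPM at E10.5, and Tfap2c fell from 87.2, 64.0 and 67.4 CPM to 31.2, 27.1 and 31.4 CPM. Haemoglobin genes took 0.230 to 0.410% of counts at E9.5 and 0.294 to 0.600% at E10.5 (exact permutation p = 0.6), and of 9 haemoglobin genes none passed by edgeR. Of 12 pericyte and smooth muscle markers 5 rose and 3 fell, with summed levels of 269 to 422 CPM at E9.5 and 555 to 567 CPM at E10.5: Cspg4 rose (log2 fold change 2.36 ± 0.30) and Des, desmin, had 28.6, 21.2 and 24.6 CPM at E9.5 and 8.32, 2.93 and 10.4 CPM at E10.5. Of 12 somite and body wall markers 3 rose, among them Pax1, and 2 fell, among them Hand1, and their summed level of 61.6 to 126 CPM at E9.5 and 183 to 212 CPM at E10.5 did not overlap between the stages (exact permutation p = 0.1). Of 14 Schwann cell and neuron markers 2 rose and 2 fell, and 1 marker rose among 15 of erythroid cells (Hemgn) and among 10 of platelets (Ppbp). Yolk sac and liver markers were at 3.24 to 5.61 CPM in sum at E9.5 and reached 17.7 CPM in E10.5 replicate 1 against 3.19 and 3.35 CPM in the other E10.5 libraries. The part of these cells in the changes of other genes was not tested. With 1 library left out of the edgeR fit, the calls of Gata6 (0.0582 without E10.5 replicate 1 and 0.0550 without E10.5 replicate 2), Hemgn (0.207 without E9.5 replicate 1, 0.120 without E9.5 replicate 2 and 0.190 without E10.5 replicate 2) and Ppbp (0.162 without E9.5 replicate 1, 0.103 without E9.5 replicate 3, 0.0614 without E10.5 replicate 1, 0.1005 without E10.5 replicate 2 and 0.0607 without E10.5 replicate 3) were lost at the adjusted p given in brackets.

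For some genes the change did not run at the same pace into the next day. Between the E10.5 and E11.5 controls 1328 genes (6.6% of those tested) were higher and 582 (2.89%) lower. The 2 intervals share the E10.5 libraries, with opposite signs, so a deviation in those libraries moves the 2 steps apart. The intervals were compared by the test of their difference, which was called for 529 of the genes tested (2.63%). The second interval had a lower log2 change for 373 (1.85%) and a higher one for 156 (0.775%). Genes that rose first and had a lower second step included Hoxd12, with 129, 165 and 189 CPM at E11.5, above every E10.5 library (difference -7.35 ± 0.65 on the log2 scale, edgeR adjusted p = 1.79e-05), Bcl11b with 62.9, 47.7 and 65.5 CPM (difference -3.15 ± 0.30), the platelet and endothelial receptor Pear1 (difference -1.99 ± 0.19), Evx1 (difference -4.42 ± 0.40) and Pmaip1 with 59.9, 30.5 and 39.5 CPM (difference -5.48 ± 0.38). Hoxa13 rose further, to 59.4, 68.2 and 83.9 CPM, by a step that was smaller on the log2 scale (difference -6.66 ± 0.57). Hoxd12 and Hoxa13 started from very low E9.5 levels, so a smaller second log2 step need not mean a smaller gain in CPM. Shh had 7.33, 0.791 and 0.572 CPM at E11.5 (difference -6.29 ± 1.30, edgeR adjusted p = 0.0157). As for Pax1, E11.5 replicate 1 had the highest Shh level of its stage.

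A second set of genes dipped at E10.5. Ngfr, a neurotrophin receptor, had 66.1, 87.4 and 73.3 CPM at E9.5 and 22.7, 17.2 and 19.6 CPM at E10.5, and 47.8, 69.2 and 88.2 CPM at E11.5 (difference of the intervals 3.72 ± 0.36, edgeR adjusted p = 2.25e-05). Matn2, a matrilin, had 4.59, 4.64 and 4.79 CPM at E9.5 and 1.72, 1.97 and 1.22 CPM at E10.5, and 4.08, 5.59 and 6.11 CPM at E11.5. Mmp9, a matrix protease, had 2.59, 3.54 and 2.43 CPM at E9.5 and 0.308, 0.199 and 0.478 CPM at E10.5, and 1.17, 3.06 and 1.86 CPM at E11.5. For Kcnk2, a potassium channel, and Chst2, a sulfotransferase, the second step was higher by 2.93 ± 0.44 and 2.04 ± 0.30. Tnc had 59.2, 93.8 and 128 CPM at E11.5 (difference 6.88 ± 1.36, edgeR adjusted p = 0.0145). Lin28a kept falling, to 3.56, 1.48 and 2.14 CPM, and its 2 steps did not differ by the test (difference 0.97 ± 0.54, edgeR adjusted p = 0.469). The numbers of genes with a higher and a lower second step were 47 and 203 without E10.5 replicate 1, 47 and 161 without E10.5 replicate 2, and 58 and 193 without E10.5 replicate 3. The number with a higher second step was 283 without E9.5 replicate 1, 98 without E11.5 replicate 2 and 91 without E11.5 replicate 3.

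**Figure D4:**
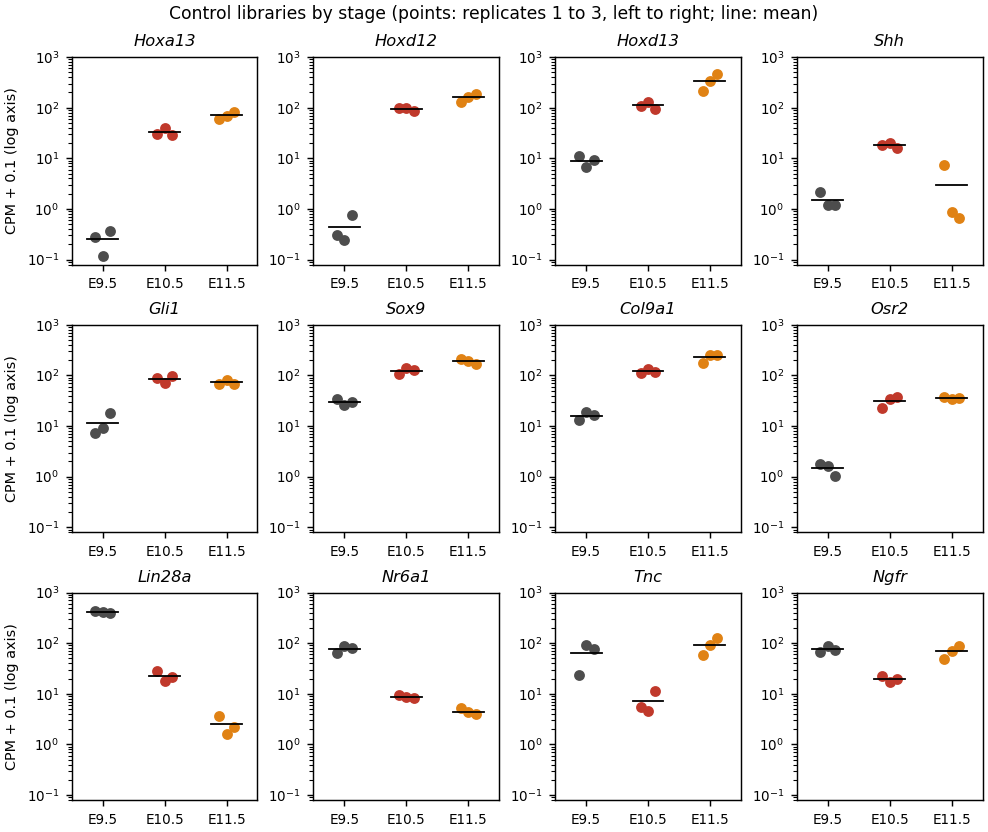
Points are the 3 control libraries of each stage for 12 genes, with CPM plus 0.1 on a log axis and a line at their mean. Hoxa13, Hoxd12 and Hoxd13 step up between E9.5 and E10.5, Shh is highest at E10.5, Lin28a and Nr6a1 step down, and Tnc and Ngfr are lowest at E10.5.

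The same interval in the mutants gives a second series of libraries that shares none with the controls. Esco2 had 15.3, 17.8 and 19.8 CPM in the E9.5 mutants and 21.9, 18.9 and 22.3 CPM in the E10.5 mutants. Counts over the whole gene do not show whether the floxed part was deleted, so they do not check the genotype labels. From E9.5 to E10.5 1938 genes (9.63%) rose and 886 (4.4%) fell in the mutants. Of the 3009 genes that rose in controls 1124 rose in the mutants, which is 37.4% of the control list and 58.0% of the mutant list, and of the 2514 that fell 474 fell in the mutants, 18.9% and 53.5% of the 2 lists. In each direction 20 control genes were called the opposite way in the mutants.

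The test of the difference between the 2 genotypes' changes was called for 446 genes (2.22%), 186 (0.925%) with a higher and 260 (1.29%) with a lower change in the mutants. It was called for 233 (7.74%) of the genes that rose in controls and for 94 (3.74%) of those that fell. The change was smaller in the mutants for 229 of the former and 94 of the latter. The control libraries enter both the choice of these genes and the difference, so the choice itself favours smaller changes in the mutants. The difference did not pass for any of the 10 Hox genes that rose in controls. Beside a share of 7.74% over all genes that rose, this says little about Hox genes in particular. Hoxd12 had 0.205, 0.278 and 0.721 CPM and 60.4, 65.7 and 50.2 CPM in the mutants (difference of the changes -0.89 ± 0.75, edgeR adjusted p = 0.493) and Hoxa13 0.154, 0.0596 and 0.139 CPM and 20.7, 23.5 and 24.4 CPM (difference -0.13 ± 0.87, adjusted p = 0.948). Sox9 had 24.9, 26.3 and 35.5 CPM and 24.5, 22.3 and 18.03 CPM in the mutants, a change that was lower than in controls by 2.46 (SE 0.26, edgeR adjusted p = 3.03e-04).

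Other genes that rose in controls had a lower change in the mutants, among them Col9a1 (difference -3.09 ± 0.40), Sox5 (-1.68 ± 0.20), Osr2 (-3.94 ± 0.52), Tbx18 (-2.51 ± 0.29), Shox2 (-1.61 ± 0.26) and Tbx5 (-1.41 ± 0.19). Pmaip1 rose in the mutants from 7.35, 7.54 and 10.03 CPM to 35.4, 38.4 and 41.4 CPM, so that its smaller step there (difference -2.99 ± 0.33, edgeR adjusted p = 3.72e-04) went with a higher level at E9.5. Of the genes that fell in controls, Tubb6, a beta tubulin, had log2 changes of -1.36 in controls and 0.17 in the mutants (difference 1.53 ± 0.19). The fall of Wfikkn1 was smaller in the mutants (difference 1.45 ± 0.26), and Atg9b fell in controls and rose in mutants (difference 4.22 ± 0.45). Fgf8, which did not pass in controls, had 59.6, 31.6 and 58.8 CPM and 146, 184 and 152 CPM in the mutants (difference 1.98 ± 0.47, edgeR adjusted p = 0.0393). The 186 and 260 genes with a higher and a lower change in the mutants became 1362 and 1148 without control E9.5 replicate 2. They became 53 and 136 without control E10.5 replicate 1, 63 and 101 without replicate 2 and 62 and 126 without replicate 3 of that group. They became 52 and 125 without mutant E9.5 replicate 2, 55 and 112 without mutant E9.5 replicate 3, 67 and 116 without mutant E10.5 replicate 2, and 38 and 86 without mutant E10.5 replicate 3. Without mutant E9.5 replicate 1 the genes with a higher change were 106, and without control E9.5 replicate 1 those with a lower change were 438.

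**Figure D5:**
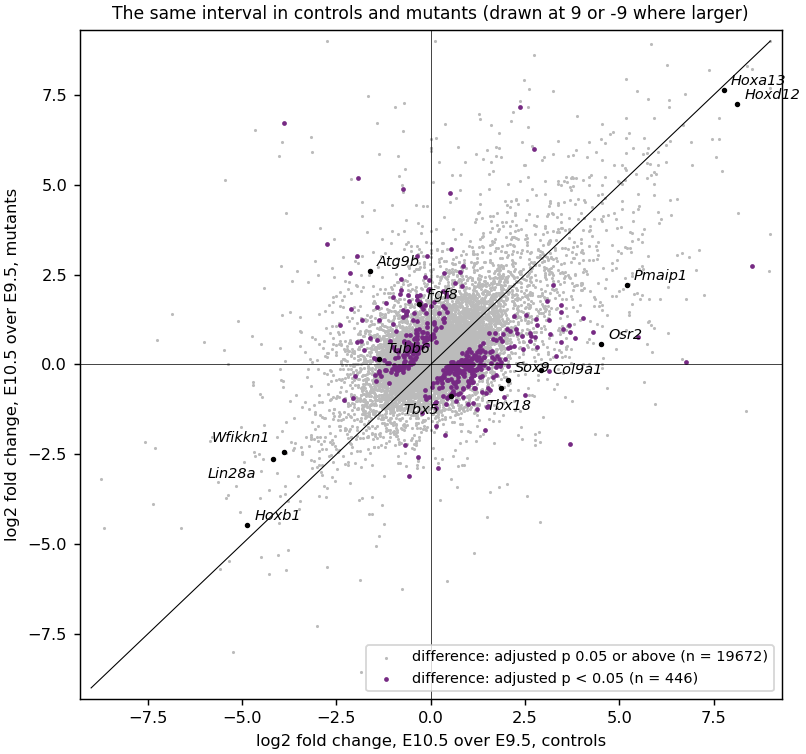
Each point is a gene, with its log2 fold change from E9.5 to E10.5 in controls on the x axis and in mutants on the y axis, and the line marks equal change. Purple points are the 446 genes whose change differed between the genotypes. Hoxa13, Hoxd12 and Hoxb1 lie near the line, and Sox9, Col9a1, Tbx18 and Osr2 lie far below it.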

How the data were processed

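RNA-seq libraries of individual forelimb buds had been made from total RNA and sequenced as read pairs. The authors trimmed with cutadapt and aligned with STAR, per the submitters' processing notes, in which limma is named as well. The deposited counts are read pairs per gene from featureCounts 1.6.4, counted by strand over exons of GENCODE M22 on mm10, per the file headers. The authors also deposited a table of log2 FPKM, with no statement of how it was normalized in the sources used here. It served as an alternative.

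Counts of all 18 libraries were fitted with edgeR 4.0.16 in R 4.3.3 (filterByExpr, TMM, robust quasi-likelihood fit, 6 group terms), so that the groups shared 1 estimate of the spread, and p-values were adjusted by Benjamini and Hochberg over 20118 genes. A call means an adjusted p under 0.05. The standard error was taken from the log2 fold change and its F value, and values after ± are standard errors. The script was checked on simulated counts. The 6 libraries held 44992366 to 56230058 counts, and counting intervals and floors cover counting error only. No pair of libraries agreed within sampling noise by a chi-square test, so each counted as 1 replicate. Symbols came from the reference annotation for 99.8% of identifiers.

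Comparisons were E10.5 against E9.5 controls, the following interval against this one, and the mutants' change against the controls' change. Single values per library were compared with exact two-sided permutation tests. Alternatives were another normalization, looser and stricter filters, fits on fewer libraries, DESeq2 1.42.0, limma 3.58.1 on voom values and on the deposited log2 FPKM, removal of a trend with gene length, the replicate number as a block, and leaving out each library. Genes were named by a rule: a fixed set, up to 4 members of each of 44 gene lists with the smallest adjusted p, the 15 largest rises and falls with a mean of at least 2 CPM, up to 8 genes per direction of each other comparison, and any member of the Hox, haemoglobin and patterning lists. The 15 largest rises and falls were taken only from called genes whose stages did not overlap, with predicted genes left out. The members and lists were chosen with earlier results of these data known. The E11.5 mutants entered the fit and are not described. A few genes that the rule named are not reported here.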

Additional observations from a re-analysis of the deposited data

Results flagged for a closer look

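Of the genes named here, 32 had a change from E9.5 to E10.5 that differed between the mutants and the controls by edgeR's test of the difference (adjusted p under 0.05). Some genes were named because they were taken from this same comparison, so their number is no separate result. It cannot be set against the 2.22% of all genes tested for which the difference was called. Each value that follows is the mutants' log2 change minus the controls' log2 change.

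Among patterning and signalling genes the differences were -2.51 for Tbx18, -1.41 for Tbx5, -1.61 for Shox2, -1.35 for Prrx1, -1.86 for Alx4, -1.79 for Osr1, -1.88 for Rspo3, -1.26 for Cyp26b1, -0.71 for Rarg, -1.45 for Cdon, -0.68 for Fgfr1 and -0.95 for Nkd2. For Tbx5, Prrx1, Cdon, Fgfr1, Alx4 and Tbx18 the controls' change was above 0 and the mutants' change below 0. The same held for Sox9, Sox5, Col9a1 and Fli1, which are given below. The sign alone does not show a fall in the mutants. Their log2 change was only -0.10 for Fgfr1, -0.16 for Col9a1 and -0.17 for Fli1. Alx4 did not pass in controls, and its log2 change in the mutants was -1.71 ± 0.26. Genes with a higher change in the mutants were 1.98 for Fgf8, 1.03 for Etv4 and 0.99 for Bambi.

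Among cartilage, matrix and guidance genes the differences were -2.46 for Sox9, -1.68 for Sox5, -3.09 for Col9a1, -2.54 for Col9a2, -1.58 for Col1a2, -1.53 for Eln, -3.94 for Osr2 and -2.56 for Robo2. Osr2, the joint and tendon factor, had the difference farthest below 0 among the named genes. In the remaining groups the differences were -2.99 for Pmaip1, -0.78 for Ccng2, -1.14 for Ebf2 and -1.38 for Fli1 below 0, and 4.22 for Atg9b, 1.53 for Tubb6, 1.45 for Wfikkn1, 1.004 for Myc and 0.59 for Psat1 above 0. Wfikkn1, Myc and Psat1 fell in controls, and their log2 changes in the mutants were -2.45 ± 0.19, -0.31 ± 0.15 and -0.52 ± 0.11.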

How the results depend on the processing

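No alternative called any of the 5523 genes in the opposite direction, and between 1788 (the fit on only the 6 libraries) and 5508 (DESeq2) of them were called in the same direction. The fit on only the groups of each contrast gave 1133 higher and 682 lower genes for the main comparison, 68 and 190 genes with a higher and a lower second interval, and 89 and 129 genes with a higher and a lower change in the mutants. It has fewer libraries from which to estimate the spread. DESeq2 gave 396 and 574 genes for the 2 intervals and 677 and 746 for the mutants, and the cause was not tested. Leaving out 1 library at a time gave 2131 to 3589 higher and 1513 to 3350 lower genes in the main comparison. For the second interval it gave 47 to 283 genes with a higher and 161 to 494 with a lower change, and for the mutants 38 to 1362 and 86 to 1148.

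Same-numbered replicates of E9.5 and E10.5 did not deviate together (correlations -0.01, 0.03 and -0.16). With 3 libraries per stage this cannot show whether they share more than a number. With the replicate block 2940 genes were higher and 2300 lower, and 118 and 213 genes had a higher and a lower change in the mutants. Not every library correlated best with its own number.

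The log2 change of some named genes that did not pass took the other sign under an alternative and still did not pass: it was 0.075 for Fgf8, 0.092 for Gas1, -0.0055 for Gli2 and 0.14 for Hoxd10 with the length trend removed. With 1 library left out it ran from -0.031 to 0.28 for Alx4, -0.10 to 0.037 for Gas1, -0.16 to 0.30 for Gli2, -0.30 to 0.15 for Hoxa9, -0.34 to 0.18 for Hoxd10, -0.44 to 0.11 for Trp63 and -1.79 to 0.27 for Pitx1. The cause was not tested.

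Exonic length went with the log2 change (Spearman 0.289 across genes, 0.0965 without E9.5 replicate 1). Without the length trend 3297 genes were higher and 2464 lower. Genes of low count are limited by depth: 76 genes called higher had 0 counts in every E9.5 control library.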
